A study of Mus musculus with 8 samples.

Results

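Matrix metalloproteinases are zinc-dependent proteases that cut collagens, elastin, proteoglycans and other proteins outside the cell. Most are secreted as inactive precursors and some are anchored in the plasma membrane; tissue inhibitors of metalloproteinases (TIMPs) and the membrane protein RECK hold them in check. In the artery wall they are known for the matrix remodelling that accompanies migration and proliferation of smooth muscle cells. Transcript levels are measured here, not enzyme activity.

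The members are 10 metalloproteinase genes, namely the gelatinases Mmp2 and Mmp9, the stromelysins Mmp3, Mmp10 and Mmp11, the collagenases Mmp8 and Mmp13, the membrane-anchored Mmp14 and Mmp23, and Mmp19. They were chosen by gene symbol, with earlier results of these data known, and not all genes of the family are among them. The shares of members called below are therefore a description beside the shares of all probes, not a test. Every probe of the array with 1 of the member symbols was taken, which gave 14 of 25697 probes and 10 of 16593 genes. Mmp3 and Mmp13 had 3 probes each and the others 1. All 8 arrays carried RNA of primary vascular smooth muscle cells, taken from carotid arteries of male C57bl6 mice without PMCA4. This protein, encoded by Atp2b4, pumps calcium out through the plasma membrane. In the 4 knockout samples the cells were left as they were, and in the 4 samples called rescued here PMCA4a, 1 splice form of the pump, had been put back by electroporating its cDNA. All cells were synchronised by serum, then given serum with PDGF-BB, a growth factor for smooth muscle, and collected in late G1/S. No knockout cells electroporated without PMCA4a were analysed here, so electroporation and PMCA4a cannot be told apart. The labels give neither the age of the mice nor whether each replicate had its own culture or animal. The p-values therefore cover the spread among these samples alone, and that spread may be technical.

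Between 12640 and 12873 probes were detected (detection p-value under 0.05) on the rescued arrays and between 12223 and 12427 on the knockout arrays. Of the 3 Atp2b4 probes only ILMN_1217742 was detected, dimly, with normalized log2 intensities of 5.54 ± 0.22 on rescued and 5.51 ± 0.24 on knockout arrays (SD, n = 4 each, limma adjusted p = 0.911), and whether it lies in the deleted part or in the cDNA was not analysed here, so it does not check the labels. Of the smooth muscle markers, Acta2 was among the brightest signals (15.83 and 15.87), while Cnn1, Lmod1 and Synpo2 were not detected on any array and Myh11 on 1. Of 6 tested smooth muscle markers 2 fell, Actg2 (log2 difference -2.85) and Tagln (-1.43), and 2 rose, Myocd (1.70) and Smtn (0.43). Among all 8633 tested genes 21.0% were higher in rescued cells and 18.9% lower. Rescued replicate 3 stood farthest from its group, with a root mean square deviation from the group mean of 0.25 on the log2 scale over tested probes, against 0.15 to 0.18 for the other rescued arrays and 0.13 to 0.15 for the knockout arrays.

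The metalloproteinase genes moved in both directions. Mmp13, Mmp3 and Mmp10 rose in rescued cells, Mmp23, Mmp14 and Mmp11 fell, Mmp2 and Mmp9 did not pass the test, and Mmp8 and Mmp19 were too dim to be tested. A probe was tested where it was detected on at least 4 of the 8 arrays, which kept 12 of the 14 probes and 8 of the 10 genes. Of these 12 probes, 6 were higher and 3 lower in rescued cells at a Benjamini-Hochberg adjusted p under 0.05 in limma, where 20.0% of all 12658 tested probes were higher and 18.7% lower (38.8% either way). The groups of 4 arrays did not overlap at the same number of member probes, 9, and at 38.8% of all tested probes. A change of at least 2-fold was reached by 6 of the called member probes and by 5.32% of all tested probes. The median absolute log2 difference was 1.36 over the 12 member probes and 0.21 over all tested probes. Mmp3 and Mmp13 supplied 3 of the 12 probes each, and 3 and 2 of those that rose. These genes therefore weigh most in the probe counts and in the median. Counted by gene, 3 of 8 rose and 3 fell, beside 21.0% of all 8633 tested genes higher and 18.9% lower at their brightest probe. One of the 12, a Mmp13 probe, was kept through the rescued arrays alone and could count only as a rise. In bulk RNA, fewer cells that express a gene and less transcript per cell cannot be told apart.

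**Figure D1:**
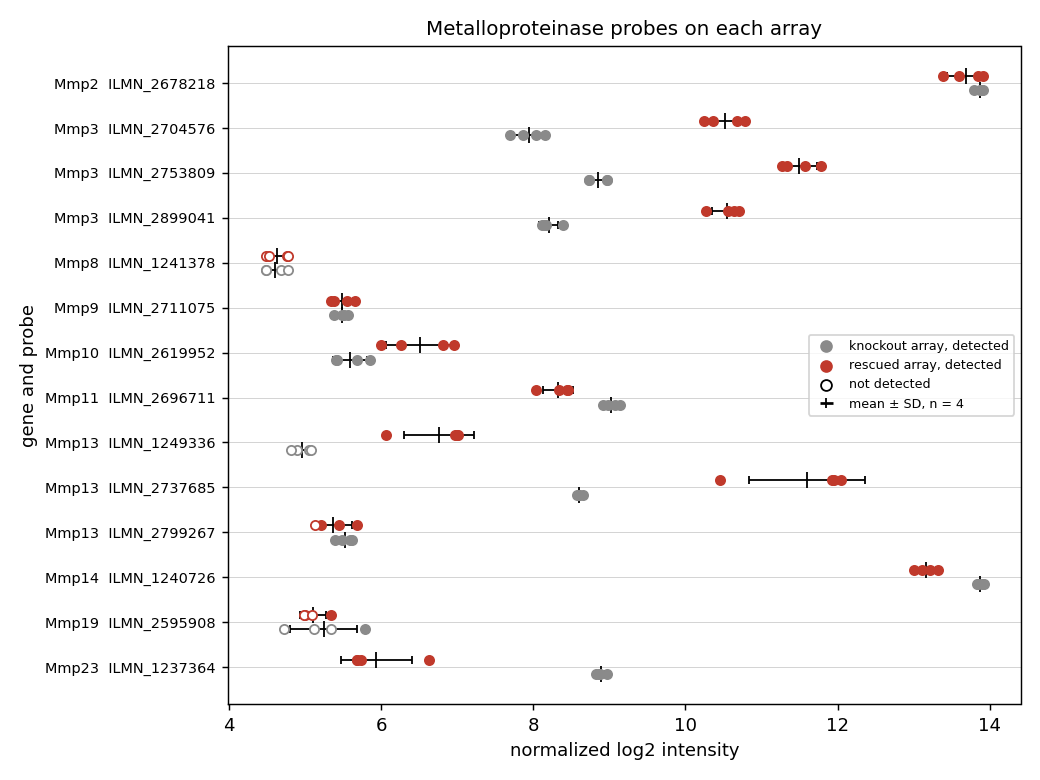
Normalized log2 intensity (horizontal axis) of the 14 metalloproteinase probes (vertical axis) on each of 4 knockout (grey) and 4 rescued (red) arrays; open circles mark arrays on which the probe was not detected, and bars give the mean ± SD (n = 4). The 3 Mmp3 probes and ILMN_2737685 of Mmp13 lie higher on every rescued array than on any knockout array, Mmp23, Mmp14 and Mmp11 lie lower, and Mmp2 and Mmp9 overlap.

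Mmp3 encodes stromelysin-1, a protease of broad range that also activates the precursors of other metalloproteinases, collagenases among them. At its brightest probe, ILMN_2753809, the log2 intensity was 11.57, 11.27, 11.33 and 11.78 on rescued replicates 1 to 4 and 8.97, 8.97, 8.73 and 8.73 on knockout replicates 1 to 4. Every rescued array stood above every knockout array by a wide gap. The means were 11.49 ± 0.24 and 8.85 ± 0.14 (SD, n = 4), a 6.22-fold rise (log2 difference 2.64, 95% interval 2.36 to 2.91, adjusted p = 5.73e-07). The scanner signal itself averaged 3043 units on rescued and 532 on knockout arrays. The other 2 probes gave nearly the same size of rise, 5.97-fold at ILMN_2704576 (log2 difference 2.58, SE 0.14) and 5.06-fold at ILMN_2899041 (2.34, SE 0.11). By absolute difference the 3 probes ranked 59, 70 and 97 among 12658 tested probes.

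Mmp10 encodes stromelysin-2, the close relative of stromelysin-1. Its probe ILMN_2619952 read 6.26, 6.95, 6.0 and 6.82 on rescued replicates 1 to 4 and 5.41, 5.68, 5.85 and 5.40 on knockout replicates 1 to 4. The groups did not overlap, but the lowest rescued array, replicate 3, lay only just above the highest knockout array. The rise was 1.89-fold (log2 difference 0.92, SE 0.21, adjusted p = 0.00696), from 5.59 ± 0.22 to 6.51 ± 0.45 (SD, n = 4). This probe was detected on all 8 arrays but lay near background, and without background correction the log2 difference was 0.43 (adjusted p = 0.00527). Without rescued replicate 3 it was 1.09 (adjusted p = 0.00166). Leaving out each array in turn gave log2 differences from 0.77 to 1.09 (adjusted p up to 0.0227).

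Mmp13 encodes collagenase-3, which cuts fibrillar collagens and, in mice, takes much of the part that the interstitial collagenase has in humans. Probe ILMN_2737685 read 11.93, 12.04, 10.46 and 11.96 on rescued replicates 1 to 4, and 8.60, 8.60, 8.65 and 8.58 on knockout replicates 1 to 4. Knockout arrays were nearly identical, 3 rescued arrays lay close together, and rescued replicate 3 lay between the groups, though nearer to the rescued arrays. The mean rose from 8.61 ± 0.03 to 11.60 ± 0.76 (SD, n = 4), which is 7.94-fold (log2 difference 2.99, 95% interval 2.30 to 3.68, adjusted p = 8.71e-05), and without rescued replicate 3 the log2 difference was 3.37 (adjusted p = 1.46e-08). In scanner units rescued replicate 3 gave 1614 where the other rescued arrays gave 4010 to 4172 and the knockout arrays 399 to 494.

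The second Mmp13 probe, ILMN_1249336, was dim, and rescued replicate 3 was again the lowest rescued array. It was detected on all 4 rescued arrays, at 6.99, 7.0, 6.07 and 6.98, and on no knockout array, and it rose (measured means 6.76 and 4.96, adjusted p = 0.000130). Its rescued mean was at least 2.75-fold higher, counted from the lowest detected level of the knockout arrays. This bound leaves out the spread among the rescued arrays (SD 0.46 on the log2 scale). Without rescued replicate 3 its measured log2 difference was 2.03 (adjusted p = 7.66e-07). That bound holds on the background-corrected scale, since without background correction the log2 difference was 0.82 (adjusted p = 5.67e-05). The third, ILMN_2799267, did not separate the groups, with 5.36 ± 0.25 on rescued and 5.52 ± 0.10 on knockout arrays (log2 difference -0.16, 95% interval -0.43 to 0.11, adjusted p = 0.328). It was detected on 3 rescued and 4 knockout arrays with signals of 115 to 133 units, close to background. The files carry no probe sequences, so which part of the transcript each probe reads was not analysed here.

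In the rescued group replicate 3 was the lowest array for Mmp10, for both Mmp13 probes that rose and for the Mmp3 probe ILMN_2704576 (10.25), while replicate 2 was lowest at the other 2 Mmp3 probes. Replicate 3 was also the lowest rescued array for Col2a1, the collagen of cartilage (12.24, 11.07, 9.13 and 10.26 on rescued replicates 1 to 4, not detected on knockout arrays). Of the 12 cartilage and bone markers on the array, 5 were tested, and 3 of them rose and 0 fell, where 21.0% of all 8633 tested genes were higher and 18.9% lower. One of the 3, Col2a1, was detected on rescued arrays alone and could count only as a rise. The summed signal of this marker list ran from 3722 on rescued replicate 3 to 10994 on rescued replicate 1, and from 2171 to 2372 on the knockout arrays. This sum largely follows Col2a1, which reached 5034 units at 1 probe, while no other marker of the list passed 587 units. Acan, Col10a1, Ibsp and Sp7 were not detected on any array. The adventitial fibroblast marker Dpt moved the other way within the group, with 12.05 on rescued replicate 3 and 8.97 to 10.07 on the other rescued arrays. Pi16 (6.94) and Pdgfra (9.47) were also highest on rescued replicate 3 within the group. Mfap5, of the same list, was lowest there, with 8.99 against 9.56 to 10.33. The summed signal of the 9 fibroblast markers on the array ran from 5017 to 8927 in rescued cells and from 10286 to 13386 in knockout cells. Replicate 3 was the highest rescued array, where Dpt alone reached 4476 units. Of 9 tested markers 6 were lower and 1 higher, beside the shares of all tested genes given above. The part of these cells in the values of Mmp13 was not tested.

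Mmp23 showed the largest fall of the family. It encodes a membrane-anchored protease that lacks the hemopexin domain of most other members and is released from the membrane by cleavage. Its probe ILMN_1237364 read 8.87, 8.88, 8.96 and 8.83 on knockout replicates 1 to 4 and 5.74, 5.69, 5.68 and 6.63 on rescued replicates 1 to 4. The groups lay far apart, and rescued replicate 4 stood above the other 3 rescued arrays. The mean fell from 8.88 ± 0.06 to 5.93 ± 0.47 (SD, n = 4), to a level 7.74-fold lower (log2 difference -2.95, 95% interval -3.39 to -2.51, adjusted p = 6.01e-06), and without rescued replicate 4 the log2 difference was -3.18 (adjusted p = 1.04e-07). Scanner signals averaged 146 units in rescued cells, close to background, and 538 in knockout cells, so without background correction the log2 difference was smaller, at -1.95 (adjusted p = 1.75e-08).

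Mmp14 encodes the membrane type 1 metalloproteinase, which cuts fibrillar collagen at the cell surface and, together with TIMP2, activates the precursor of MMP2. It read 13.85, 13.93, 13.83 and 13.89 on knockout replicates 1 to 4 and 13.01, 13.10, 13.22 and 13.32 on rescued replicates 1 to 4, with no overlap. The fall was 1.64-fold, from 13.88 ± 0.04 to 13.16 ± 0.13 (SD, n = 4; log2 difference -0.71, SE 0.08, adjusted p = 0.000142). Mmp11, which encodes stromelysin-3, a member that is activated inside the cell and acts weakly on classical matrix proteins, read 9.07, 8.92, 8.98 and 9.14 on knockout replicates 1 to 4 and 8.45, 8.46, 8.03 and 8.34 on rescued replicates 1 to 4. It fell 1.63-fold, again with no overlap between the groups (log2 difference -0.71, SE 0.10, adjusted p = 0.000745).

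The gelatinase transcripts did not pass the test. Mmp2, which encodes the gelatinase that MMP14 activates, was bright, with 13.84, 13.60, 13.91 and 13.38 on rescued replicates 1 to 4 and 13.79, 13.87, 13.91 and 13.89 on knockout replicates 1 to 4. Rescued replicates 2 and 4 were below all knockout arrays, and replicates 1 and 3 were within their range. The log2 difference was -0.18 (95% interval -0.44 to 0.07, adjusted p = 0.239), and without rescued replicate 4 it was -0.08 (adjusted p = 0.526). Mmp9, the gelatinase known from macrophages and neutrophils, was detected on all 8 arrays at signals of only 116 to 132 units. Its means were 5.48 ± 0.15 and 5.49 ± 0.08 (SD, n = 4), and the interval of the log2 difference ran from -0.21 to 0.19 (adjusted p = 0.959).

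Mmp8, the collagenase of neutrophils, was not detected on any array, with signals of 83.3 to 103 units. Of 10 neutrophil markers on the array 3 were tested, and S100a9, Ngp, Camp, Ltf and Retnlg were not detected on any array. S100a8 fell from 7.56 to 5.31 (adjusted p = 0.000125), and the summed signal of the list ran from 1762 to 1785 in rescued and from 1804 to 1953 in knockout cells. Mmp19 was detected only on rescued replicate 3 (5.34) and knockout replicate 2 (5.79) and was not tested. The macrophage markers Ptprc, Adgre1, Itgam, Tyrobp and Fcer1g were not detected on any array, and of the 3 macrophage markers tested 2 rose and 1 fell, with a summed signal of 1743 to 1856 in rescued and 1505 to 1601 in knockout cells. Of 5 tested endothelial markers 4 rose and 0 fell, but Vwf and Nos3 were detected on rescued arrays alone and could count only as rises (summed signal 3251 to 4896 in rescued and 2375 to 2851 in knockout cells), while Pecam1 and Cdh5 were not detected on any array. Beside these counts, 21.0% of all 8633 tested genes were higher and 18.9% lower. The part of these lists in the metalloproteinase values was not tested.

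**Figure D2:**
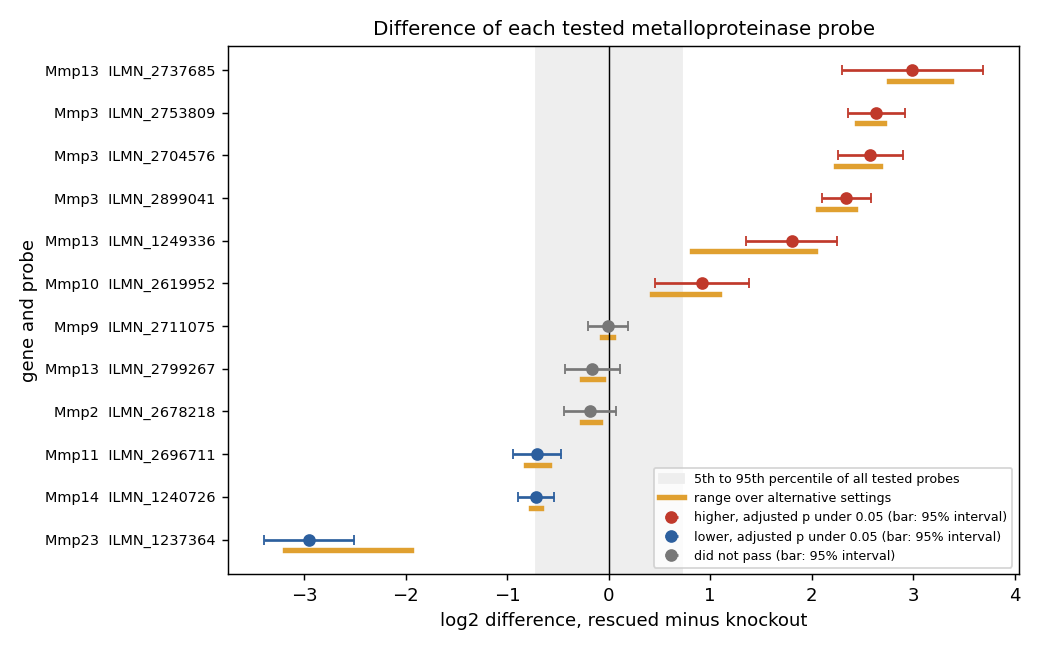
Log2 difference, rescued minus knockout (horizontal axis), of the 12 tested metalloproteinase probes (vertical axis), with 95% intervals from limma; the orange bars give the range over the alternative settings and the grey band the range from the 5th (-0.72) to the 95th (0.73) percentile of all tested probes. The 3 Mmp3 probes and ILMN_2737685 of Mmp13 stay above 2 under every setting, and Mmp23 stays below -1.9.

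The 3 genes that rose lie in the same metalloproteinase cluster on chromosome 9, with other genes of the family between them. In the RefSeq gene table of assembly GRCm38.p6 the protein-coding genes of this cluster follow each other as Mmp13, Mmp12, Mmp1b, Mmp3, Mmp1a, Mmp10, Mmp8, Mmp27, Mmp20 and Mmp7. The rises were not shared by all of the cluster. Mmp12, Mmp1b, Mmp8, Mmp20 and Mmp7 were not detected on any array, and Mmp1a, which lies between Mmp3 and Mmp10 and encodes an interstitial collagenase, fell slightly from 7.13 ± 0.09 to 6.88 ± 0.09 at its tested probe (SD, n = 4; log2 difference -0.25, adjusted p = 0.0266). That call was lost with median scaling, with an intensity trend, with the replicate block and without rescued replicate 1, knockout replicate 3 or knockout replicate 4 (adjusted p up to 0.0731). The flanking genes differed little, with log2 differences of 0.01 for Dcun1d5 and -0.17 for Yap1 (adjusted p = 0.957 and 0.0828), and the brightest Birc2 probe at 0.30 (adjusted p = 0.0133). The median log2 difference of the 657 tested probes on chromosome 9 was 0.00. Chromosome medians ran from -0.31 on chromosome 12 to 0.21 on chromosome 15, with -0.19 on chromosome 4, which holds Mmp23. The cause of these shifts was not tested.

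**Figure D3:**
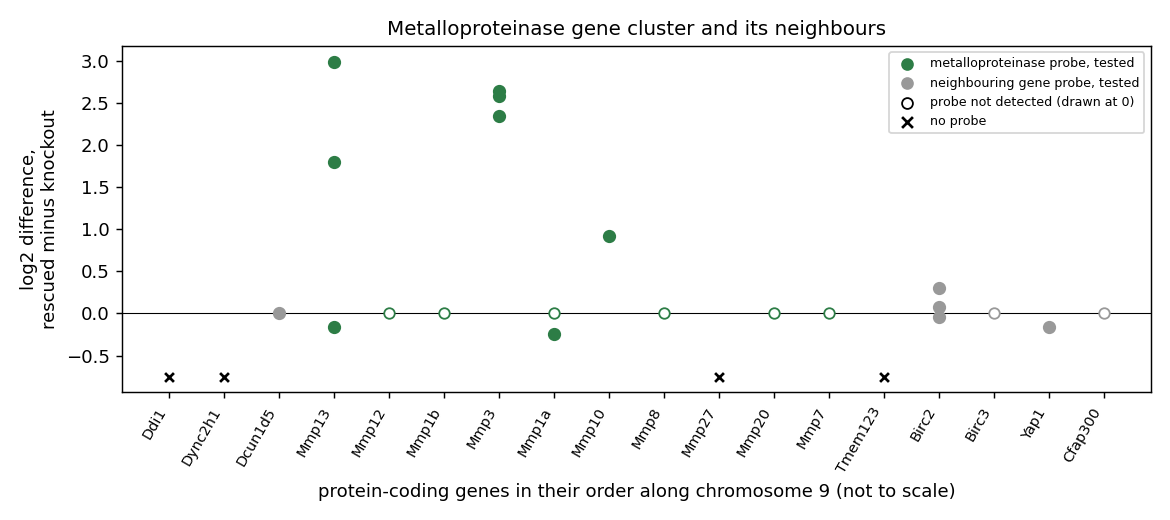
Log2 difference, rescued minus knockout (vertical axis), of each tested probe of the chromosome 9 metalloproteinase cluster (green) and of its flanking genes (grey), in gene order (horizontal axis, not to scale); open circles are probes not tested because they were not detected, drawn at 0, and crosses are genes with no probe. Mmp13, Mmp3 and Mmp10 have probes above 0.9, while Mmp1a and the flanking genes lie between -0.25 and 0.30.

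The promoters of these genes are shown because the 3 members that rose share a sequence element there, a choice made with the rises known. AP-1, the dimer of FOS and JUN proteins, binds the letters TGACTCA and is a classical regulator of stromelysin and collagenase promoters. The RefSeq promoter table of GRCm38.p6 holds windows of 300 bases, from 250 before to 50 after the annotated start, for 7 of the 10 genes, and Mmp2, Mmp9 and Mmp19 have no entry. The windows of the 3 genes that rose and of Mmp23, which fell most, are given 5′ to 3′ on the gene's strand, with each match to TGACTCA or its reverse complement TGAGTCA in capitals.
Mmp3, chr9:7445572-7445871, + strand: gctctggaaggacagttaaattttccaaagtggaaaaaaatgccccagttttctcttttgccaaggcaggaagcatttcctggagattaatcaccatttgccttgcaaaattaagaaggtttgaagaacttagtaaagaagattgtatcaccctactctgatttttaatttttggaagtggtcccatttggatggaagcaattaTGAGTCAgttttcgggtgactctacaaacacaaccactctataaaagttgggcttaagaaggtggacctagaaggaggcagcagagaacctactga
Mmp10, chr9:7502092-7502391, + strand: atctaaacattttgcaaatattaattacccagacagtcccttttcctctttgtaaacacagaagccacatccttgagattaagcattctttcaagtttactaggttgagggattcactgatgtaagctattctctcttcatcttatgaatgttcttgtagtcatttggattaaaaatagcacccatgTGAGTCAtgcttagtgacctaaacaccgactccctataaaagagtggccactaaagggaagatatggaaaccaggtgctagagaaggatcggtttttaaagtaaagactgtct
Mmp13, chr9:7272264-7272563, + strand: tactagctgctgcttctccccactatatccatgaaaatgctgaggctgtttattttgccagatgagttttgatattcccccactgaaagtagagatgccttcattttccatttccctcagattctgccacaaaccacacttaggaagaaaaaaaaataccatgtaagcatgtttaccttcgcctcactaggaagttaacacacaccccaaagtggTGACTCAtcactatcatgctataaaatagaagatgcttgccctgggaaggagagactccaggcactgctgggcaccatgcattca
Mmp23, chr4:155653335-155653634, - strand: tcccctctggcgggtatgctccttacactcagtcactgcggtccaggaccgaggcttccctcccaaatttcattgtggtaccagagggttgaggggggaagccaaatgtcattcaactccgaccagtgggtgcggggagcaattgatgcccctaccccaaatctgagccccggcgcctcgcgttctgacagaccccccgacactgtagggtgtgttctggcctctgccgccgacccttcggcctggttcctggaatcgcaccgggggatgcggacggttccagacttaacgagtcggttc

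Each of the 3 windows of genes that rose held 1 AP-1 match, starting 46 bases before the annotated start in Mmp3, 63 in Mmp10 and 35 in Mmp13. No window of Mmp8, Mmp11, Mmp14 or Mmp23 (which has 2 windows) held these letters. The cluster genes that are not members, such as Mmp1a, Mmp1b and Mmp12, were not searched. Whether the match sets apart the genes that rose from these neighbours was therefore not tested. A match on either strand was held by 5.2% of all 32851 promoter windows. The same 3 windows held the TATA box letters TATAAA on the gene's strand between the AP-1 match and the start, which 8.32% of all windows held anywhere on that strand, and the other members' windows did not. The PEA3 letters AGGAAG, bound by ETS factors, were present on either strand in Mmp3, Mmp8, Mmp13 (2 matches) and Mmp14, and in 35.4% of all windows. The RUNX letters ACCACA were present in Mmp13, Mmp14 and Mmp23, and in 16.8% of all windows. A match is a description of the sequence and not a binding site shown by these data.

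None of the 6 tested AP-1 subunit genes passed as higher in rescued cells. A further subunit gene, Fosl2, had no probe. AP-1 activity was not measured, and its part in the rises was not tested. Jund fell by 0.35 on the log2 scale (adjusted p = 0.0162), while Fos, Fosb, Fosl1, Jun and Junb differed by -0.52, -0.57, -0.12, -0.17 and -0.27 without passing (adjusted p from 0.0540 to 0.520). Of 17 tested factors that are known to act on metalloproteinase promoters, 2 rose and 5 fell, beside 21.0% of all tested genes higher and 18.9% lower. Ets2, an ETS factor, rose from 10.03 ± 0.08 to 11.31 ± 0.40 (SD, n = 4, adjusted p = 0.000445) and Runx1 rose by 0.52 (adjusted p = 0.0280). Ets1 fell by 0.38, and Stat3, the transducer of interleukin-6 type cytokines, fell by 0.64. The ETS factor Etv1, which was dim, fell by 0.81, and its call was lost once chromosome medians were removed, a setting added after the data were seen (-0.50, adjusted p = 0.0571).

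The inhibitors were lower or did not pass. Of 4 tested inhibitor genes 3 fell and 0 rose, beside 18.9% of all tested genes lower and 21.0% higher, and Timp4 and Tfpi2 were not detected. Reck, which encodes a membrane-anchored inhibitor of MMP2, MMP9 and MMP14, fell from 11.35 ± 0.05 to 9.52 ± 0.17 (SD, n = 4), to a level 3.56-fold lower (log2 difference -1.83, adjusted p = 8.77e-07). Timp3, the inhibitor that binds to the matrix, fell by 0.47 at its brightest probe (adjusted p = 0.000589) and its other probe differed by -0.90. Timp1 fell by 0.38 (adjusted p = 0.00311), with signals up to 62164 units, close to the top of the scanner's range. Timp2, the partner of MMP14 in the activation of MMP2, stood at 14.99 ± 0.06 and 14.99 ± 0.11 (adjusted p = 0.982).

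Among the other metalloproteinases, 5 of the 10 genes on the array were tested. Of these 1 rose and 2 fell, beside 21.0% of all tested genes higher and 18.9% lower. Mmp16, a membrane type member, fell from 9.66 ± 0.14 to 8.62 ± 0.32 (SD, n = 4; log2 difference -1.04, adjusted p = 0.000678), beside the fall of Mmp1a. Mmp17, another membrane-anchored member, rose by 0.56 (adjusted p = 0.00670) but was dim and detected on 1 knockout array. Mmp28 and Mmp24 differed by 0.51 and 0.18 without passing (adjusted p = 0.0665 and 0.325), and Mmp28 passed with the replicate block (adjusted p = 0.0140), at 0.63 without rescued replicate 4 (adjusted p = 0.0390) and at 0.70 without knockout replicate 2 (adjusted p = 0.00957).

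Of 10 tested genes that activate, localise or clear metalloproteinases, 4 fell and 0 rose, beside 18.9% of all tested genes lower and 21.0% higher. Plau, which encodes the plasminogen activator urokinase, fell by 1.05 on the log2 scale (adjusted p = 0.000867) and Cav1, the coat protein of caveolae, fell by 0.85 (adjusted p = 0.000282). Bsg, a surface inducer of metalloproteinases, fell by 0.65 (adjusted p = 0.00493) at a dim probe. Serpinb2, a plasminogen activator inhibitor, fell by 0.80 (adjusted p = 0.0313), and this call was lost without rescued replicate 4 or knockout replicate 1, 3 or 4 (adjusted p from 0.0619 to 0.0826).

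Of 16 tested growth factors, cytokines and receptors that induce metalloproteinases, 1 rose and 3 fell. Over all tested genes 21.0% were higher and 18.9% lower, so the share that fell was near that of all genes. The receptor gene Egfr rose by 1.66 on the log2 scale (adjusted p = 9.55e-07; its 4 probes differed by 0.83 to 1.66). Il6st and Osmr, which encode the chains of the oncostatin M receptor, had log2 differences of -1.77 and -0.85 (adjusted p = 3.78e-06 and 0.00675), both lower, and the PDGF receptor gene Pdgfrb fell by 0.42 (adjusted p = 0.00235). The inducers Il1a, Il1b and Tnf were not detected on any array, and Il6 differed by -0.01 (adjusted p = 0.942).

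Of 20 tested matrix substrates 2 rose and 10 fell, beside 21.0% of all tested genes higher and 18.9% lower. Col4a1 and Col4a2, the chains of basement membrane collagen, were lower, with log2 differences of -1.12 and -0.81 (adjusted p = 0.000910 and 0.00221), and Col5a1 fell by 0.52 (adjusted p = 0.00348). Without rescued replicate 3 the log2 difference of Col4a1 was -1.32 (adjusted p = 7.74e-06). Col1a1 rose by 0.41 (adjusted p = 0.0140), and Col2a1, a preferred substrate of collagenase-3, also rose (adjusted p = 5.20e-05). Its rescued mean was at least 41.4-fold higher, counted from the lowest detected level of the knockout arrays. This bound leaves out the spread among the rescued arrays (SD 1.31 on the log2 scale). That bound belongs to the background-corrected scale with offset 16, since the log2 difference of Col2a1 was 5.59 there, 4.62 with an offset of 50 and 3.95 without background correction. Without rescued replicate 3 it was 6.10 (adjusted p = 8.00e-06). Over all removals of 1 array the log2 difference of Col2a1 ran from 5.06 to 6.10 (adjusted p up to 0.000359). Over the 6 lists together 6 of 72 tested genes rose, 27 fell and 39 did not pass, beside 21.0% of all 8633 tested genes higher and 18.9% lower.

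**Figure D4:**
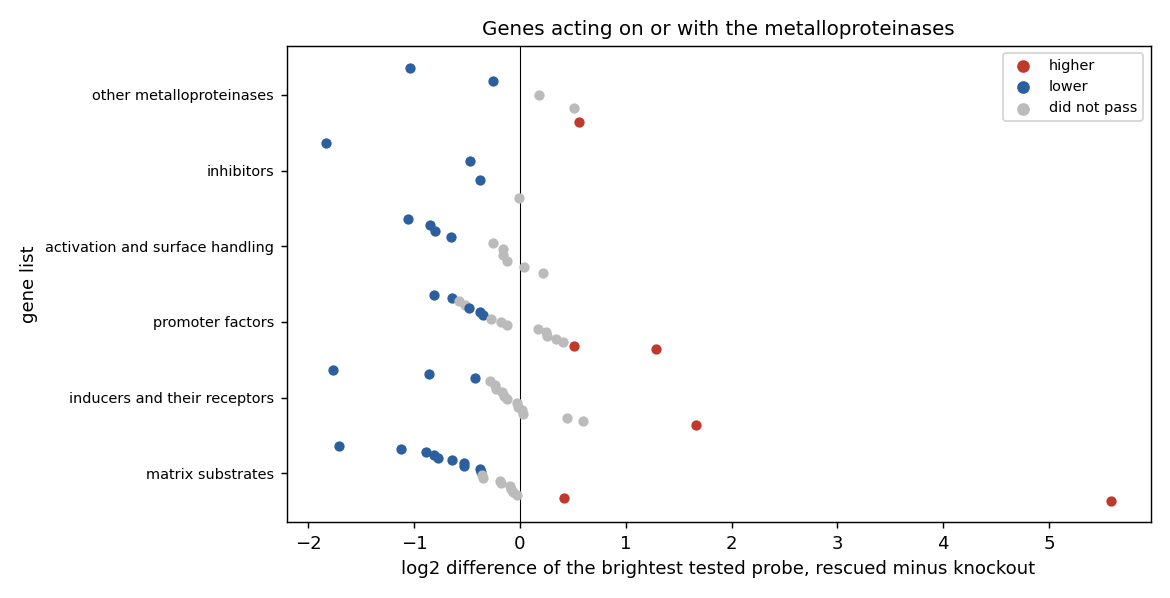
Log2 difference, rescued minus knockout (horizontal axis), of the brightest tested probe of each gene in 6 lists of genes that act on or with metalloproteinases (vertical axis, genes sorted within a list); red genes passed as higher, blue as lower, and grey did not pass. Reck lies lowest among the inhibitors at -1.83, and Col2a1, drawn at its measured difference of 5.59, is the highest of the matrix substrates.

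The genes whose pattern over the 8 arrays was most like that of Mmp13 (ILMN_2737685), by the root mean square difference of log2 values centred on each probe's mean, were Sprr2d (0.15), Parm1 (0.24) and Nrip3 (0.25). For Mmp23 they were C4bp (0.18), Artn (0.23) and Luzp2 (0.26). A log2 difference close to that of the member follows from this way of choosing. It ran from 2.63 to 2.96 for the genes like Mmp13 and from -3.16 to -2.83 for those like Mmp23.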

How the data were processed

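Gene expression was measured on 8 Illumina bead arrays of 1 colour. The authors deposited a linear intensity that was not normalized and a detection p-value for each of 25697 probes, per the file headers. A second deposited table holds log2 values, made by steps that the sources used here do not describe. These differed from the log2 values computed here by at most 0.0266.

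Here neqc (offset 16) corrected the intensities for background, inferred from the detection p-values, and made their quantiles equal, in limma 3.58.1 under R 4.3.3. A probe was kept if its detection p was under 0.05 on 4 or more arrays. Rescued minus knockout was fitted per probe over all 12658 kept probes with lmFit and eBayes and adjusted by Benjamini-Hochberg, two-sided, with a threshold of 0.05. The procedure was tested on simulated data. Where a probe was detected on no array of the dimmer group, the fold is a bound against the lowest detected level of each of those arrays. Symbols come from the platform annotation, updated through the RefSeq table; 23978 probes had 1 symbol, 0 had several and 1719 had none. In the lists a gene is its brightest kept probe. Precision is limited by the number of arrays. No slide or scan date is given, so no batch could be tested.

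The named genes are all members and, per list, up to 4 genes with the smallest p among those that passed, with other metalloproteinases and inhibitors; further list members were chosen after their values were seen, as were Birc2, Dcun1d5 and Yap1, which flank the cluster. The members and lists were chosen with earlier results of these data known. Same-numbered replicates did not deviate together (correlations from -0.08 to 0.00), so the numbers were not treated as pairs.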

Additional observations from a re-analysis of the deposited data

Results flagged for a closer look

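Among 78 groups of 4 arrays, over the member probes and the named list genes, 4 held an extreme array. In these, the distance from that array to the next one made up more than 0.829 of the whole range (the critical value of Dixon's test), which chance gives in about 1 of 20 groups. Of these 4 arrays, 3 were rescued replicate 3. It was low for Mmp13 at both probes that rose, with 10.46 at ILMN_2737685 against 11.93 to 12.04 on the other rescued arrays, and 6.07 at ILMN_1249336 against 6.98 to 7.0. It was high for Col4a1, with 11.94 against 11.09 to 11.22. For Mmp23, rescued replicate 4 was high, with 6.63 against 5.68 to 5.74. Both Mmp13 probes and Mmp23 passed the threshold with and without these arrays.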

How the results depend on the processing

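All 9 calls among the member probes kept their direction and their side of the threshold in every alternative that tested them. Requiring detection on all 8 arrays left 8 calls, since it removed the Mmp13 probe not detected in knockout cells. Leaving out each array in turn gave 9 calls every time, 6 higher and 3 lower, with all probes called from 4141 to 5056 (2125 to 2594 higher and 2016 to 2462 lower). The listed genes called then ran from 24 to 42, with 5 to 10 higher and 19 to 34 lower. Without background correction the log2 differences shrank most for dim probes, to 0.43 for Mmp10, 0.82 for ILMN_1249336 of Mmp13 and -1.95 for Mmp23. The replicate block gave 9 member calls and 4206 over all probes, and with the deposited log2 values the counts were 9 and 4901. An adjusted p under 0.01 gave 3037 calls over all probes (1559 higher, 1478 lower) and 21 listed genes (17 lower). Requiring 1.5-fold gave 1765 (887 higher, 878 lower) and 19 listed genes (3 higher, 16 lower). Both are stricter by construction, and both left 9 member calls. Removing chromosome medians, chosen after seeing the data, left 9 calls, with -2.76 for Mmp23. Dim signal limits Mmp8, Mmp9, Mmp10, Mmp19 and the probe ILMN_2799267 of Mmp13.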
